A study of Homo sapiens with 12 samples.

Results

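The Krüppel-like factor (KLF) genes described here are KLF2, KLF3, KLF4, KLF6, KLF7, KLF10, KLF11, KLF12 and KLF13, 9 of the 63129 gene IDs in a table of RNA levels from 3 lymphoma cell lines. They were listed by gene symbol, and each symbol had 1 row. The family was chosen by measured values of these data, and which values led to the choice is not recorded. The fall of KLF10 with the EZH2 inhibitor CPI-169 in KARPAS-422 cells is treated here as among them. The CPI-169 comparison and the difference between the inhibitor responses, which contains it, are therefore described with their sizes and intervals, and no p-value is given for a change found there. Of the 9 genes, 7 reached 1 FPKM in at least 2 of the 12 libraries and were tested. KLF4 and KLF11 did not. FPKM scales the number of fragments to the length of the transcript and the size of the library, so levels can be set side by side between genes.

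KLF proteins bind GC boxes and CACCC boxes in DNA through zinc fingers at their C-terminal end, and differ in the N-terminal part that recruits cofactors. KLF2, KLF4, KLF6 and KLF7 are known mainly as activators, KLF3 and KLF12 as repressors that recruit CtBP, and KLF10, KLF11 and KLF13 as factors that recruit the SIN3A corepressor. In lymphocytes, KLF2 is known for keeping resting cells out of division and for controlling their homing, and KLF4 for restraining proliferation of B cells.

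The 3 cell lines, KARPAS-422, Pfeiffer and RL, come from diffuse large B cell lymphoma of the germinal centre type and are established lines. All of them carry an activating change in the SET domain of EZH2, the histone H3 lysine 27 methyltransferase. The labels class KARPAS-422 and Pfeiffer as responsive to EZH2 inhibition and RL as not responsive. KARPAS-422 received 1.5 µM CPI-169 (n = 3) or 0.1% DMSO (n = 3), Pfeiffer 1.5 µM GSK343 (n = 2) or 0.1% DMSO (n = 2), and RL 0.1% DMSO alone (n = 2), each for 4 days from seeding. Each inhibitor was used in 1 line, so inhibitor and line cannot be told apart, and each line has its own series of library numbers, so line and series cannot be told apart either. The labels do not say whether replicates were separate cultures, so the p-values cover spread among libraries that may be only technical.

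The 2 GSK343 libraries stood apart from each other (Pearson's r = 0.97 over the tested genes, against 0.993 to 0.9972 for other replicate pairs). All groups share the estimate of the spread, and Pfeiffer results are given with and without each of these libraries. Summed levels of 6 B cell markers ran from 1480 to 2660 FPKM per library. Summed levels of 8 markers of other cells were 1.6 to 2.11 FPKM in KARPAS-422 with DMSO, 4.45 to 5.02 with CPI-169, 136 to 137 in Pfeiffer with DMSO, 52.6 to 71.9 with GSK343 and 4.65 to 5.01 in RL. Of those 8, 5 could be tested. CD3D, CD3E and NKG7 were higher with CPI-169 (NKG7 met the filter through those libraries alone), and EPCAM was lower (135 ± 0.309 to 58.2 ± 11.9 FPKM) and COL1A1 higher (1.13 ± 0.136 to 3.11 ± 1.54 FPKM) with GSK343. HBB was listed at 0 in every library, and CD14 and LYZ stayed at or under 0.387 FPKM. The part of these genes in the KLF results was not tested. In bulk RNA, fewer cells of a kind and less RNA per cell cannot be told apart.

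The windows below show the 250 bases before the RefSeq start (GRCh38.p14) of the 2 activator genes that fell with CPI-169 and of the member that rose with it. They are shown because GC and CACCC boxes are the letters that KLF proteins bind. Capitals mark GC boxes (GGGCGG, or CCGCCC on the other strand) and CACCC boxes (CACCC or GGGTG). Lower case is all other sequence, and each window is written 5′ to 3′ in the direction of the gene.
KLF2, chr19:16324576-16324825, plus strand: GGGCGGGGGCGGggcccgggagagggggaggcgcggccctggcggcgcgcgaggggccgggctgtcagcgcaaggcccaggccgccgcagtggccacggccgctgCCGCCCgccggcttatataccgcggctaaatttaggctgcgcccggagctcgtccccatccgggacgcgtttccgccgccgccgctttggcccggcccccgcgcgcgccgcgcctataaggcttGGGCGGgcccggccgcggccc
KLF6, chr10:3785210-3785459, minus strand: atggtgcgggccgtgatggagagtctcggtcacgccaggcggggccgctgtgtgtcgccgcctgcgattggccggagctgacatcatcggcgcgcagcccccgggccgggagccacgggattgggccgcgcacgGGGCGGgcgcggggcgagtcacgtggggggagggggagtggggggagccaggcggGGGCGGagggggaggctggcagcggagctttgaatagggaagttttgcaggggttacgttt
KLF13, chr15:31326585-31326834, plus strand: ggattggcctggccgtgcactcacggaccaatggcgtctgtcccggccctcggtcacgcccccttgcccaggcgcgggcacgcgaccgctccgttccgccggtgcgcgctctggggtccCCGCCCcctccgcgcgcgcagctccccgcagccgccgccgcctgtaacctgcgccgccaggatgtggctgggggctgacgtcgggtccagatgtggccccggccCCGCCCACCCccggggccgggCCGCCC
The KLF2 window held 4 GC boxes and 0 CACCC boxes and was 80% G or C. The KLF6 window held 2 GC boxes and 0 CACCC boxes at 72.4% G or C. The KLF13 window held 3 GC boxes and 1 CACCC box, which share 1 base, at 78.8% G or C. The bases just after the start were found in a GENCODE transcript of the gene for KLF2 and KLF6, but not for KLF13. Over all 35116 RefSeq windows of that length the median was 58% G or C, 42.6% held a GC box and 54.7% a CACCC box on either strand. Windows were found for 7 members, 14 windows in all (none for KLF3 or KLF10), and 8 of the 14 held a GC box and 6 a CACCC box. A match describes letters and is not a binding site.

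With CPI-169 in KARPAS-422, 4 of the 7 tested KLF genes fell (KLF2, KLF6, KLF10 and KLF12), KLF13 rose, and KLF3 and KLF7 did not pass the test. KLF2 met the filter through the DMSO libraries of that line alone, so its fall was fixed by the filter. The fall of KLF10 is treated here as among the values that led to the choice of the family. Both genes are in the count and in the median below, which describe chosen values and support nothing about the family. The values of all 9 genes in the 12 libraries are plotted below. Over all 18731 tested genes, 27.3% were lower and 26.9% higher in that comparison. The median log2 difference of the 7 genes was -0.82, beside 0.01 over all tested genes. Every log2 difference is on the log2(FPKM + 1) scale, which understates changes of genes near or below 1 FPKM.

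**Figure D1:**
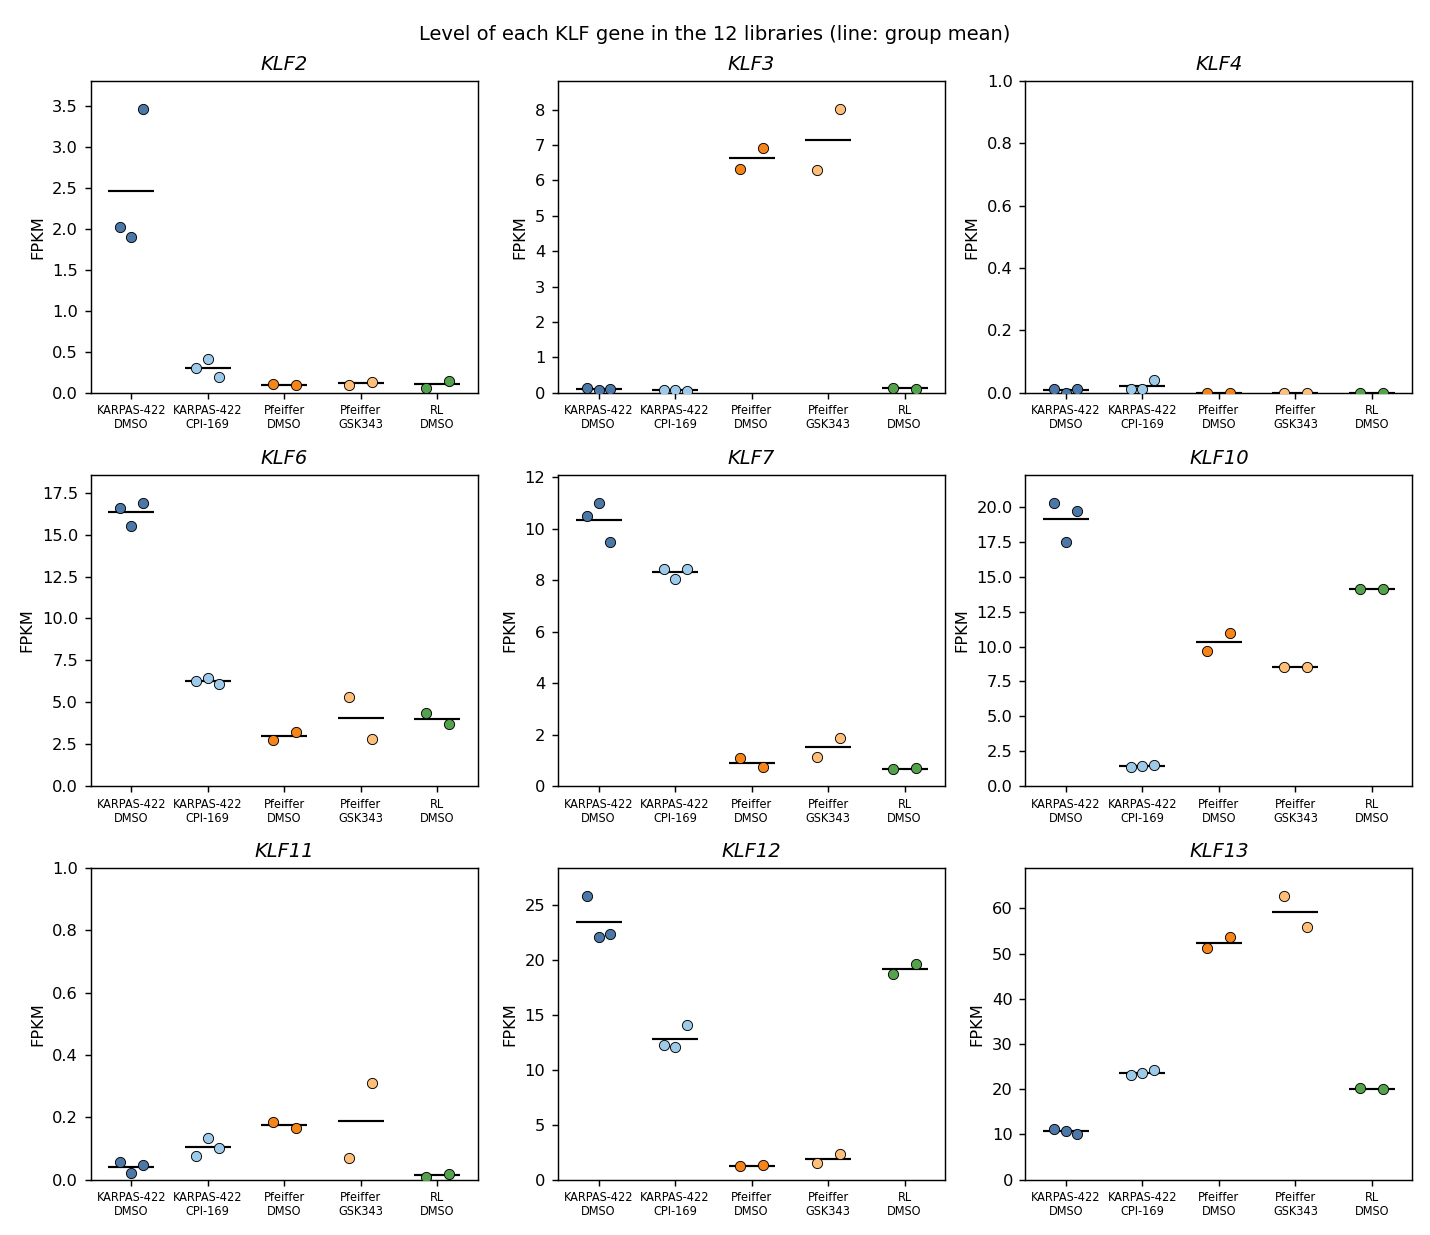
Each panel plots FPKM (linear axis from 0) of 1 KLF gene by group, with a point per library and a line at the group mean. KLF10 drops to between 1.4 and 1.51 FPKM with CPI-169 in KARPAS-422, KLF13 is highest in Pfeiffer (51.2 to 62.7 FPKM), and KLF3 exceeds 1 FPKM only in Pfeiffer.

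Among the activators, KLF2 (hg19 19:16435628-16438685) stood at 2.02, 1.9 and 3.46 FPKM in the KARPAS-422 DMSO libraries and at 0.299, 0.406 and 0.196 FPKM with CPI-169. The groups did not overlap, and DMSO replicate 3 was the highest. The mean fell from 2.46 ± 0.871 to 0.3 ± 0.105 FPKM (SD, n = 3 each), which is 8.19-fold lower, with a log2 difference of -1.39 (SE 0.143, 95% interval -1.7 to -1.07). With a pseudocount of 0.1 FPKM in place of 1 that difference was -2.66. In Pfeiffer KLF2 stood at 0.104 and 0.0894 FPKM with DMSO and at 0.0892 and 0.136 with GSK343, and in RL at 0.0597 and 0.146. These libraries overlapped, and all lay below the KARPAS-422 libraries with CPI-169. KLF2 passed the filter on low values only through the KARPAS-422 DMSO libraries, so it had to differ from the other groups.

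KLF6 (10:3818188-3827473), a widely expressed activator known as a tumour suppressor, stood at 16.6, 15.5 and 16.9 FPKM with DMSO and at 6.25, 6.46 and 6.1 with CPI-169 in KARPAS-422. The groups were well apart. The mean fell from 16.3 ± 0.71 to 6.27 ± 0.182 FPKM (SD, n = 3 each), 2.6-fold lower, with a log2 difference of -1.25 (SE 0.154, 95% interval -1.59 to -0.91). In Pfeiffer it was 2.75 and 3.21 FPKM with DMSO and 5.33 and 2.79 with GSK343. GSK343 replicate 1 was above both DMSO libraries and replicate 2 between them. RL stood at 4.34 and 3.71 FPKM.

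KLF7 (2:207938861-208031991), an activator best known from neurons, stood at 10.5, 11 and 9.49 FPKM with DMSO and 8.42, 8.05 and 8.44 with CPI-169 in KARPAS-422. The groups did not overlap, and the difference (log2 difference -0.28, SE 0.117) missed the threshold (limma, Benjamini-Hochberg adjusted p = 0.0621). Its side of the threshold depended on the setting: it passed in 6 of 20 alternatives, those with only the KARPAS-422 libraries fitted, without either or both GSK343 libraries, with median scaling and with quantile normalization. Pfeiffer showed 1.09 and 0.737 FPKM with DMSO and, with GSK343, 1.14 and 1.88, and RL 0.676 and 0.689. KLF7 was thus mainly a transcript of KARPAS-422 among these 3 lines, with the lowest KARPAS-422 library at 8.05 FPKM and the highest other library at 1.88.

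KLF4 (9:110247133-110252763), one of the classic reprogramming factors, was listed at 0 in 7 of the 12 libraries and reached at most 0.0402 FPKM, in CPI-169 replicate 3. It was not tested. Levels this low allowed no comparison.

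Of the CtBP-recruiting repressors, KLF12 (13:74260226-74708394) stood at 25.8, 22.1 and 22.4 FPKM with DMSO and 12.3, 12.1 and 14.1 with CPI-169 in KARPAS-422. The groups did not overlap. The mean fell from 23.4 ± 2.04 to 12.8 ± 1.12 FPKM (SD, n = 3 each), 1.83-fold lower, with a log2 difference of -0.82 (SE 0.108, 95% interval -1.06 to -0.58). RL was close to the vehicle-treated KARPAS-422 level at 18.7 and 19.6 FPKM, while Pfeiffer held 1.24 and 1.32 FPKM with DMSO and 1.54 and 2.3 with GSK343.

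KLF3 (4:38665817-38702663), the founding CtBP-binding member, showed the opposite distribution. Pfeiffer held 6.33 and 6.93 FPKM with DMSO and, with GSK343, 6.3 and 8.01, and the other 8 libraries 0.0476 to 0.143 FPKM. It passed the filter only through Pfeiffer and so had to differ between lines. With CPI-169 its log2 difference was -0.04 (95% interval -0.23 to 0.15), both groups lying under 0.2 FPKM. The overlapping transcripts AC021860.1 and RP11-617D20.1 reached at most 0.0125 and 0.227 FPKM and the pseudogene KLF3P1 0.49, and how the counting shared reads among them is not given in the sources used here.

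KLF10 (8:103661007-103668130), also called TIEG1 and known as an early gene induced by TGF-beta, had the largest difference of the 7 genes with CPI-169. It stood at 20.3, 17.5 and 19.7 FPKM with DMSO and 1.4, 1.42 and 1.51 FPKM with CPI-169 in KARPAS-422. The 3 treated libraries lay close together and far below every other library of the series. The mean fell from 19.2 ± 1.49 to 1.44 ± 0.0592 FPKM (SD, n = 3 each), 13.3-fold lower, with a log2 difference of -3.04 (SE 0.0779, 95% interval -3.22 to -2.87). In Pfeiffer it was 9.71 and 11 FPKM with DMSO and, with GSK343, 8.51 and 8.52, and in RL 14.1 in both libraries. KLF10 thus fell below its level in vehicle-treated RL, where it was lower than in vehicle-treated KARPAS-422 by 1.36-fold.

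KLF11 (2:10182976-10194963), the closest relative of KLF10 and likewise induced by TGF-beta, stayed between 0.00739 and 0.311 FPKM and was not tested. The highest value was GSK343 replicate 2, and the other GSK343 library stood at 0.0682 FPKM.

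KLF13 (15:31619058-31727868), known for driving the chemokine gene CCL5 in T cells, was the member that rose. It stood at 11.2, 10.8 and 10.1 FPKM with DMSO and 23.2, 23.6 and 24.2 with CPI-169 in KARPAS-422. The groups did not overlap. The mean rose from 10.7 ± 0.541 to 23.7 ± 0.505 FPKM (SD, n = 3 each), 2.22-fold higher, with a log2 difference of 1.08 (SE 0.0664, 95% interval 0.93 to 1.23). In Pfeiffer it was 51.2 and 53.6 FPKM with DMSO and, with GSK343, 62.7 and 55.8, and in RL 20.3 and 20. The treated KARPAS-422 level lay above RL and below Pfeiffer. A pseudogene inside its locus, UBE2CP4, reached 0.0534 to 2.98 FPKM.

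With GSK343 in Pfeiffer, 0 of the 7 genes passed the test (limma with Benjamini-Hochberg adjustment), and 3 had an unadjusted p under 0.05: KLF7, KLF10 and KLF12. KLF2 is among the 7, though it met the filter through KARPAS-422 alone and stayed at or below 0.136 FPKM in Pfeiffer. Over all tested genes, 12% were higher and 17.5% lower by the adjusted p. The share of all tested genes with an unadjusted p under 0.05 is not given, so the count of 3 cannot be set against it. The median log2 difference of the 7 genes was 0.17, beside -0.03 over all tested genes. KLF7 differed by 0.38 (95% interval 0.06 to 0.7, adjusted p = 0.0683, limma), KLF12 by 0.34 (0.05 to 0.63, adjusted p = 0.074) and KLF10 by -0.26 (-0.47 to -0.04, adjusted p = 0.0673). In each of these 3 genes both GSK343 libraries lay on the same side of both DMSO libraries, and the same held for KLF13. The share of all tested genes with such separation is not given, so the separation lends no weight to these differences. KLF13 differed by 0.17 (-0.01 to 0.35), KLF6 by 0.3 (-0.12 to 0.72), KLF3 by 0.09 (-0.14 to 0.32) and KLF2 by 0.02 (-0.37 to 0.41).

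The outcome in Pfeiffer depended on which GSK343 library was used. A fit without either of them leaves 1 GSK343 library, so these results are given by size alone. KLF3 differed by 0.24 without replicate 1 and by -0.06 without replicate 2. Against the DMSO mean, KLF6 stood at 0.67 in GSK343 replicate 1 and -0.07 in replicate 2, KLF12 at 0.16 and 0.53, KLF7 at 0.17 and 0.6, and KLF13 at 0.26 and 0.09 on the log2 scale. KLF10 stood at -0.26 and -0.25 and KLF2 at -0.01 and 0.05. EPCAM, at 135 FPKM with DMSO and 58.2 with GSK343, fell in that line as given above, and its part in these values was not tested.

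**Figure D2:**
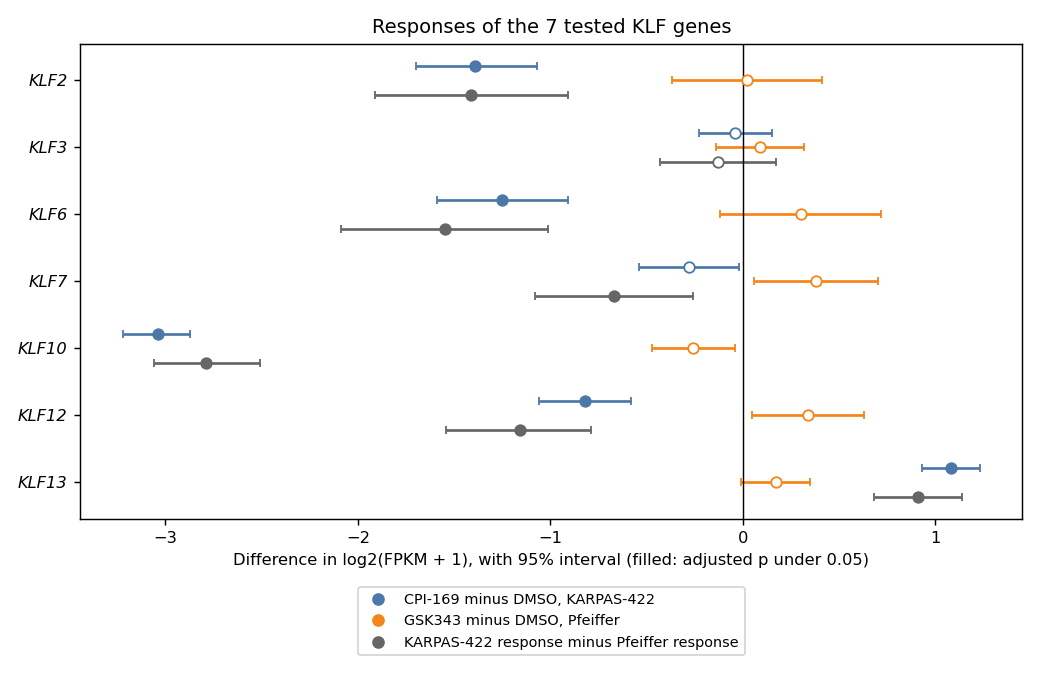
The plot gives the difference in log2(FPKM + 1) of each tested KLF gene with its 95% interval, for CPI-169 in KARPAS-422, GSK343 in Pfeiffer and the first minus the second. Filled points passed an adjusted p of 0.05. The GSK343 points lie between -0.26 and 0.38, and the CPI-169 points of KLF2, KLF6, KLF10 and KLF12 at or below -0.82.

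The responses of the 2 treated lines differed for 6 of the 7 genes. The KARPAS-422 response was lower for KLF2, KLF6, KLF7, KLF10 and KLF12 and higher for KLF13. That comparison called 18.8% of all tested genes lower and 23.8% higher. The count holds KLF2, which met the filter through the KARPAS-422 DMSO libraries alone and had to differ. It also holds KLF10, whose fall is treated here as a value behind the choice of the family. The count therefore describes chosen values and supports nothing about the family. The widest gap was that of KLF10, at -2.79 (95% interval -3.06 to -2.51). KLF6 followed at -1.55 (-2.09 to -1.01), KLF2 at -1.41 (-1.91 to -0.91), KLF12 at -1.16 (-1.54 to -0.79), KLF13 at 0.91 (0.68 to 1.14) and KLF7 at -0.67 (-1.08 to -0.26). The gap of KLF7 did not pass without Pfeiffer DMSO replicate 2 (adjusted p = 0.0707, limma). The gap of KLF3 was -0.13 (-0.43 to 0.17). For KLF2 all Pfeiffer libraries lay at or below 0.136 FPKM, a level at which a fall could hardly be measured.

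With vehicle alone the lines carried different sets of KLF genes. Between KARPAS-422 and Pfeiffer with DMSO, KLF2 and KLF3 had to differ, since each met the filter on low values through 1 of these lines alone. Of the other 5 tested genes, 4 were higher in KARPAS-422 (39.8% of all tested genes were) and 1 lower (43.2% were). KLF12 was 18.3-fold higher in KARPAS-422 (log2 difference 3.42, limma, adjusted p = 7.01e-10), KLF7 11.3-fold (2.57, adjusted p = 1.2e-08) and KLF6 5.48-fold (2.12, adjusted p = 5.38e-07). KLF10 was 1.85-fold higher (0.82). The KARPAS-422 DMSO libraries also enter the fall of KLF10 with CPI-169, so KLF10 is given with no p-value, though it is in the count. Which values led to the choice of the family is not recorded, so the baseline p-values may not be free of it. KLF13 was 4.91-fold lower in KARPAS-422 (-2.19, adjusted p = 5.24e-10, limma). KLF2 was 25.5-fold higher in KARPAS-422 and KLF3 67.0-fold higher in Pfeiffer. These KLF2 and KLF3 ratios rest on mean levels under 0.1 FPKM in the lower line, and their log2 differences of 1.63 and -2.8 became 3.65 and -5.09 with a pseudocount of 0.1.

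The baseline comparisons share their DMSO libraries with each other, and the values of RL against each line are therefore given side by side. Against KARPAS-422, KLF6 (-1.79), KLF7 (-2.75) and KLF10 (-0.42) were lower in RL and KLF13 (0.86) higher, that is 3 lower and 1 higher of 6, beside 33.2% and 33.6% of all tested genes. KLF2 (-1.62) is left out of this count, since it met the filter through KARPAS-422 alone and had to differ. KLF10 is in the count, though its KARPAS-422 DMSO values also enter its fall with CPI-169. KLF3 is among the 6, though it met the filter through Pfeiffer alone and stayed at or below 0.143 FPKM in both lines compared. KLF12 differed by -0.27 (limma, adjusted p = 0.0653) and KLF3 by 0.03 (adjusted p = 0.81). The KLF12 difference passed in 4 of 19 alternatives, those without 1 or both GSK343 libraries or with only the compared groups fitted, at an adjusted p down to 0.0167 with limma.

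Against Pfeiffer, KLF12 (3.14) and KLF10 (0.41) were higher in RL and KLF13 (-1.33) lower, that is 2 higher and 1 lower of 6, beside 35.6% and 38.7% of all tested genes. KLF3 (-2.76) is left out of this count, since it met the filter through Pfeiffer alone and had to differ. KLF2 is among the 6, though it met the filter through KARPAS-422 alone and stayed at or below 0.146 FPKM in both lines compared. KLF2, KLF6 and KLF7 differed by 0.01 (-0.38 to 0.4), 0.34 (-0.08 to 0.75) and -0.18 (-0.5 to 0.14) and did not pass. KLF6 passed in 4 of 19 alternatives, again those without GSK343 libraries or with only the compared groups. RL thus held KLF12 at 19.2 FPKM, beside 23.4 in KARPAS-422 and 1.28 in Pfeiffer, and KLF6 at 4.02, beside 16.3 and 2.98. Its KLF10 and KLF13 levels lay between those of the other lines. In the order of the group means, neighbouring groups of KLF7, KLF10, KLF12 and KLF13 never overlapped in range. For KLF6 the GSK343-treated Pfeiffer and RL libraries did. The share of all tested genes with such separation is not given, so it lends no weight to these differences.

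**Figure D3:**
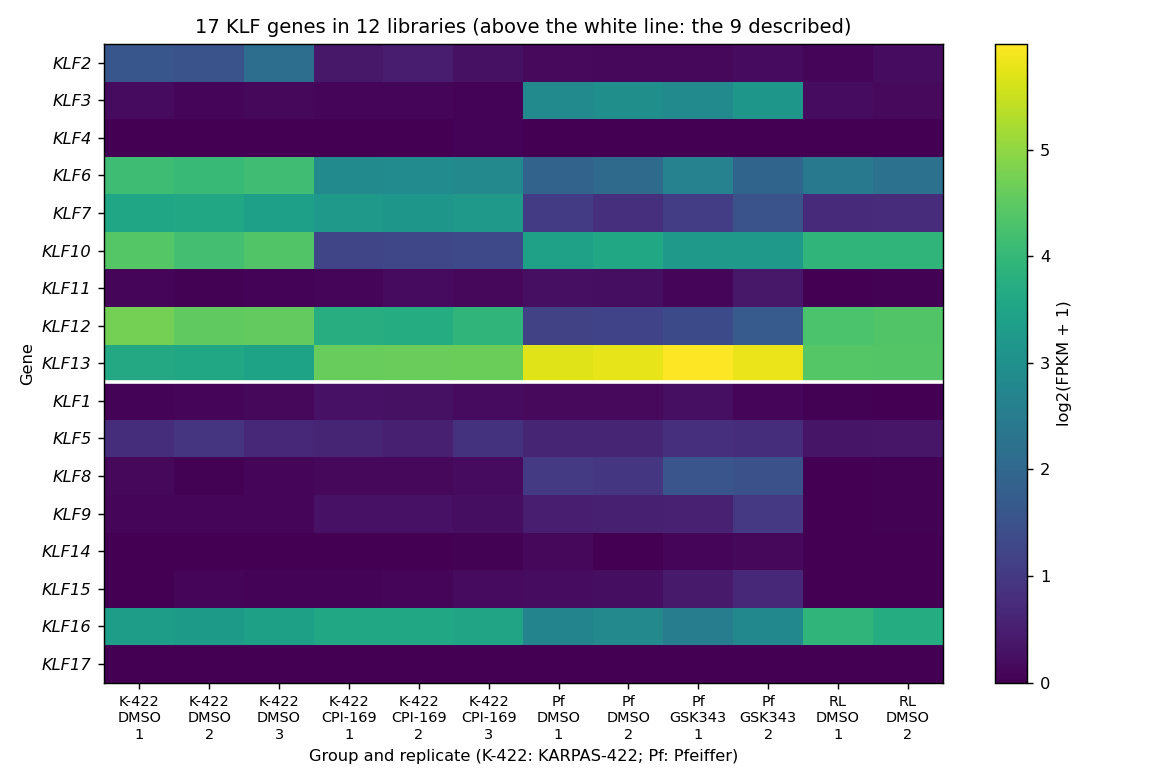
Colour gives log2(FPKM + 1) of 17 KLF genes (rows) in each of the 12 libraries (columns, by group and replicate). KLF13 and KLF16 are present in all libraries, and KLF4, KLF11 and most genes under the white line lie near 0.

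The table also holds KLF1, KLF5, KLF8, KLF9, KLF14, KLF15, KLF16 and KLF17, which makes 17 KLF genes with the 9 described. Of these 8, KLF8 and KLF16 passed the filter on low values. KLF16, which recruits SIN3A, averaged 9.1 FPKM in vehicle-treated KARPAS-422 and 10.7 after CPI-169 (log2 difference 0.22, limma, adjusted p = 0.0795), 5.77 and 5.3 in Pfeiffer without and with GSK343, and 13.1 in RL. Its difference with CPI-169 passed in 4 of 20 alternatives, those with only KARPAS-422 fitted or without either or both GSK343 libraries. KLF8, a CtBP-recruiting repressor, stood at 1.04 and 0.929 FPKM with DMSO and 1.99 and 1.79 with GSK343 in Pfeiffer (log2 difference 0.54, SE 0.0761). It met the filter through the GSK343 libraries, since 1 DMSO library alone reached 1 FPKM, so this difference is given with no test. KLF5 was at 0.262 to 0.87 FPKM, KLF1 and KLF14 reached at most 0.219 and 0.0936, and KLF17 was at or near 0 in all libraries. KLF9 averaged 0.0682 and 0.209 FPKM in KARPAS-422 with DMSO and CPI-169 and 0.425 and 0.725 in Pfeiffer with DMSO and GSK343, and KLF15 0.154 and 0.465 in Pfeiffer. Neither could be tested at these levels.

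Summed over the 17 genes, KLF mRNA came to 96.6, 88.5 and 92.7 FPKM in KARPAS-422 with DMSO and 64.0, 64.1 and 66.6 with CPI-169. Pfeiffer held 80.5 and 85.3 FPKM with DMSO and, with GSK343, 94.2 and 89.9, and RL 72.8 and 70.8. In KARPAS-422 the share of KLF13 in that sum went from 11.5% ± 0.626 to 36.5% ± 0.232 and that of KLF10 from 20.7% ± 0.817 to 2.22% ± 0.0425 (SD, n = 3 each). KLF12 was the most abundant KLF mRNA of vehicle-treated KARPAS-422, with 25.3% ± 1.29, and KLF13 that of the treated cells. In Pfeiffer KLF13 made up 63.2% ± 0.644 with DMSO and 64.3% ± 3.18 with GSK343 (SD, n = 2 each). In RL KLF13 and KLF12 held 28.1% ± 0.312 and 26.7% ± 1.48 (SD, n = 2). These shares describe the same values as above and are not tested.

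**Figure D4:**
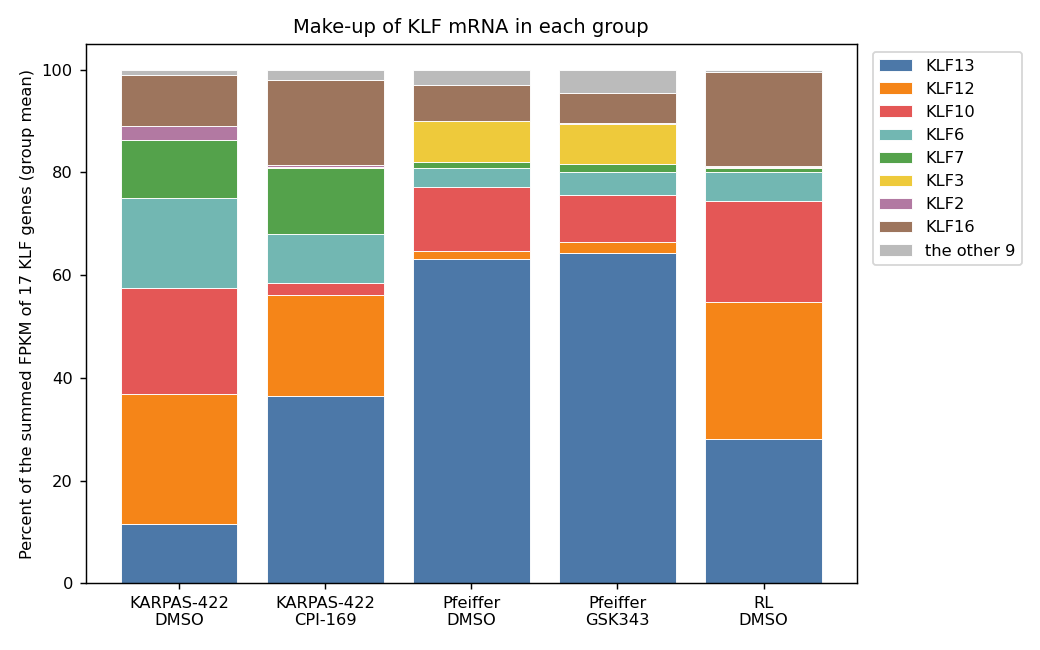
Stacked bars give the mean percent of the summed FPKM of 17 KLF genes in each group, by gene (the other 9 pooled in grey). With CPI-169 the KLF13 part widens from 11.5% to 36.5% and the KLF10 part narrows from 20.7% to 2.22%, while KLF13 makes up 63.2% and 64.3% of the Pfeiffer bars.

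Genes around the KLF factors were read from lists of their cofactors, regulators, ligases and targets. All 4 tested SP factors, the relatives that bind the same GC boxes, fell with CPI-169 (median log2 difference -0.52), beside 27.3% of all tested genes, and 3 of the 4 did with quantile normalization. SP2 went from 22.6 ± 1.72 to 13.8 ± 0.647 FPKM and SP4 from 9.04 ± 0.349 to 5.34 ± 0.139 (SD, n = 3 each). With GSK343 1 of the 4 fell, SP3 (16.9 to 13.1 FPKM, limma, adjusted p = 0.0207), beside 17.5% of all tested genes. Its call was lost without either Pfeiffer DMSO replicate (adjusted p = 0.0521 and 0.116, limma), with quantile normalization (0.113) and with only Pfeiffer fitted (0.242).

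Among 10 cofactor genes, 2 rose and 4 fell with CPI-169, beside 26.9% and 27.3% of all tested genes. With GSK343 2 rose and 3 fell, beside 12% and 17.5%. CREBBP, which encodes a histone acetyltransferase used by activating KLF proteins and is recurrently mutated in this lymphoma, fell from 64.9 ± 7.91 to 22.3 ± 2.19 FPKM in KARPAS-422 (-1.5) and rose from 10.3 ± 0.63 to 18.5 ± 2.12 in Pfeiffer (0.78). Its relative EP300 fell in KARPAS-422 from 35.7 ± 3.67 to 22.3 ± 0.874 FPKM. HDAC1, a deacetylase of the SIN3A complex, fell in Pfeiffer from 330 ± 11.7 to 211 ± 0.312 FPKM. The number of cofactor genes called in Pfeiffer depended on which GSK343 library was used. Over the alternatives, the log2 difference in Pfeiffer ran from 0.67 to 0.89 for CREBBP and from -0.68 to -0.38 for HDAC1.

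Of 8 KLF2 regulators, 3 rose and 4 fell with CPI-169, beside 26.9% and 27.3% of all tested genes. The 4 that fell became 2 with quantile normalization, without KARPAS-422 DMSO replicate 1 and without CPI-169 replicate 1. MAP2K5, the kinase upstream of ERK5, fell from 50.3 ± 0.876 to 20.6 ± 1.13 FPKM and MEF2C, a factor that ERK5 activates, from 102 ± 1.42 to 72.8 ± 4.69 (SD, n = 3 each). With GSK343 3 rose and 0 fell, beside 12% and 17.5% of all tested genes, among them FOXO1 (4.35 to 9.43 FPKM) and FOXO3 (1.6 to 3.01 FPKM), which activate KLF2 in lymphocytes. KLF2 itself stayed at or below 0.136 FPKM in those libraries. All 8 regulators were higher in KARPAS-422 than in Pfeiffer with DMSO, beside 39.8% of all tested genes.

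Of 4 KLF2 trafficking targets, 2 could be tested. ITGB7, a homing integrin gene, rose with CPI-169 from 12.8 ± 0.628 to 39.4 ± 0.689 FPKM (log2 difference 1.55), and S1PR4 was listed at 0 in KARPAS-422. S1PR1, a gene that KLF2 activates, stayed at or below 0.109 FPKM in every library. With GSK343 neither tested gene passed (limma, 0 of 2, and 0 at an unadjusted p under 0.05). Over all tested genes, 12% were higher and 17.5% lower with GSK343 by the adjusted p. RL, with KLF2 at or below 0.146 FPKM, held ITGB7 at 53.7 ± 1.53 FPKM and S1PR4 at 14.9 ± 0.714 (SD, n = 2). S1PR4 met the filter through RL alone. Pfeiffer had KLF2 at or below 0.136 FPKM and low levels of both genes. There ITGB7 averaged 7.97 FPKM with DMSO and 6.68 with GSK343, and S1PR4 0.237 and 0.383. A link of KLF2 to these levels was not tested.

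Among 9 tested TGF-beta pathway genes, 2 rose and 4 fell with CPI-169, beside 26.9% and 27.3% of all tested genes. With GSK343 5 rose and 0 fell, beside 12% and 17.5%. The receptor gene TGFBR1 went from 3.46 ± 0.438 to 10.3 ± 0.292 FPKM with CPI-169 and from 2.07 ± 0.123 to 4.44 ± 0.938 with GSK343. SMAD3, which carries the signal to the nucleus, went from 4.93 ± 0.246 to 10.2 ± 0.441 and from 1.85 ± 0.0772 to 3.45 ± 0.237 FPKM. The 4 that fell with CPI-169 were SMAD7 (log2 difference -1.17), SKIL (-1.16), TGFB1 (-0.59) and SMAD2 (-0.45), all of which are printed here after their values were seen. The 4 ubiquitin ligase genes had 2 higher and 1 lower with CPI-169, beside 26.9% and 27.3% of all tested genes. SMURF2 rose by 0.75 and SMURF1 fell by 0.44 on the log2 scale. With GSK343 1 was higher, FBXW7 (0.68), and 0 lower, beside 12% and 17.5%. The FBXW7 call was lost without GSK343 replicate 2 (0.29, limma, adjusted p = 0.0622), without either DMSO replicate (0.107 and 0.0918), with no filter (0.0635) and with only Pfeiffer fitted (0.192).

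Of 3 tested cell cycle targets of KLF4 and KLF6, 0 passed with CPI-169 (limma; 1 at an unadjusted p under 0.05, and 2 called without either GSK343 library or with only KARPAS-422 fitted). With GSK343 1 passed, CCND1, the cyclin D1 gene, at 1.22 ± 0.0153 FPKM with DMSO and 3.14 ± 0.274 with GSK343 (SD, n = 2 each). With only the 4 Pfeiffer libraries fitted, HDAC1, CREBBP, FOXO1, FOXO3, SMAD3 and TGFBR1 missed the threshold in Pfeiffer (limma, adjusted p = 0.0554 to 0.0958). In that fit 257 genes were higher and 552 lower over the whole table, against 2254 and 3281 with all libraries.

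**Figure D5:**
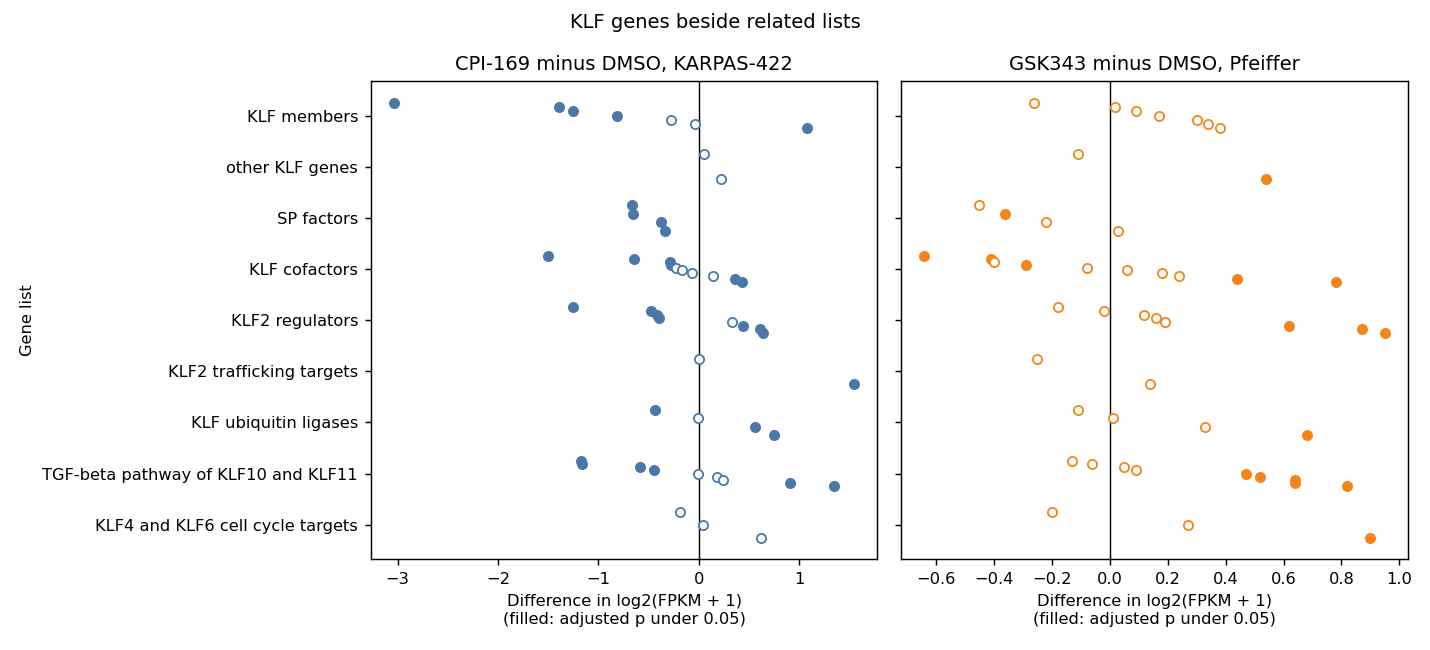
Each point is the difference in log2(FPKM + 1) of 1 tested gene with CPI-169 in KARPAS-422 (left) or GSK343 in Pfeiffer (right), by list, and filled points passed an adjusted p of 0.05. The horizontal scales differ between the panels. All 4 SP factors lie below 0 with CPI-169, and KLF10 is the lowest point at -3.04.

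The genes whose pattern over the 12 libraries was most like that of a KLF gene were sought among 13841 tested genes with a mean of at least 2 FPKM. The points share 5 groups and their libraries, so r describes group levels more than anything within a group. KLF10 was matched most closely by DDX31 (Pearson's r = 0.988) and KPNA6 (0.983), and KLF6 by PWWP2A (0.992) and LTA, the lymphotoxin alpha gene (0.981). KLF12 went with CSRNP1 (0.999) and RCOR1, a corepressor gene (0.997), and KLF13 with PABPC1, which encodes a poly(A)-binding protein (0.991), and FOCAD (0.99). KLF7 went with SPRED1, an inhibitor of ERK signalling, and ATP10D (0.997 each). The Pfeiffer gene KLF3 went with NTN4 and WNT7B (0.999 each), and KLF2 with ZNHIT6 (0.983) and MAP1LC3B (0.977).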

How the data were processed

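RNA-seq of 12 libraries was used. The authors deposited 1 table of FPKM values. Per the submitters' processing notes, the tools were TopHat 1.4.1 and Cufflinks and the build hg19. The annotation release, the library kit and whether strands were counted apart are not given in the sources. Read numbers are unknown, so no counting intervals are given. The FPKM sum per library ran from 371965 to 630387, and 14018 to 16391 genes reached 1 FPKM. An abundant transcript lowers the other FPKM values of its library, and a listed 0 can be a failed estimate. Loci are 1-based, from that table.

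The 18731 genes that reached 1 FPKM in 2 or more libraries were fitted as log2(FPKM + 1) by limma 3.58.1 under R 4.3.3 (5 groups, intensity trend, residual degrees of freedom 7, prior 3.45), 2-sided, with Benjamini-Hochberg adjustment over all tested genes and a threshold of 0.05. The fit was tested on simulated data. Members and lists were chosen with earlier results of these data known. By rule the text names all KLF genes, the 2 members per list with the smallest adjusted p among those called in each treatment comparison, and the 2 genes of most like pattern per tested KLF gene. The markers of other cells, and genes that served to show a low level, were named after their values were seen. Alternatives were a replicate block, a pseudocount of 0.1, other filters, median and quantile scaling, fits of the compared groups alone, and each library left out. Of the listed genes, 1 is not reported here. Leaving out both GSK343 libraries was added after seeing the data.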

Additional observations from a re-analysis of the deposited data

Results flagged for a closer look

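For 6 KLF genes the difference between the inhibitor responses of the treated lines passed the threshold of the fit across all genes. It contains the CPI-169 comparison, which is treated here as among the values behind the choice of the family. In addition, KLF2 met the filter through KARPAS-422 with DMSO alone. The values are therefore a description and support nothing. The KARPAS-422 response minus the Pfeiffer response, in log2(FPKM + 1), was -2.79 for KLF10, -1.55 for KLF6, -1.41 for KLF2, -1.16 for KLF12, -0.67 for KLF7 and 0.91 for KLF13. The inhibitor also differed between the lines. KLF2, KLF6, KLF7 and KLF12 had point estimates of opposite sign in the lines, while KLF10 had a negative one in both and KLF13 a positive one in both.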

How the results depend on the processing

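Over the alternatives, 769 of the single-gene KLF results kept their direction and their side of the threshold, 23 newly passed, 1 no longer passed and 8 changed sign, none of which had passed before. The counts of called KLF genes stayed within 1.5 times except in Pfeiffer, where 0 of 7 became 1 with a pseudocount of 0.1 (KLF12), 1 with median scaling (KLF7) and 1 with quantile normalization (KLF13), and ran from 0 to 3 over the fits that left out a library. Sign changes with quantile normalization were KLF2 with GSK343 (-0.01), KLF7 in RL against Pfeiffer (0.32) and KLF8 with CPI-169 (-0.03). Over fits that left out a library, the GSK343 differences ran from -0.01 to 0.05 for KLF2, -0.06 to 0.24 for KLF3, -0.07 to 0.67 for KLF6 and -0.25 to 0.03 for KLF16, the KLF3 gap between responses from -0.28 to 0.02, and KLF2 in RL against Pfeiffer from -0.05 to 0.06. The cause was not tested. Whether replicate numbers pair the libraries could not be decided. Deviations from the group means of same-numbered libraries had r of -0.152, -0.252 and 0.156 in KARPAS-422. Those of differently numbered ones ran from -0.251 to 0.334. In Pfeiffer r was 0.14 for same-numbered libraries, and with 2 libraries a group the others had to mirror it at -0.14. With the replicate block, 5 KLF genes were called with CPI-169, 0 with GSK343, 6 for the difference and 7 between KARPAS-422 and Pfeiffer, as without it. Without GSK343 replicate 1 the whole-table calls in Pfeiffer were 4458 higher and 4223 lower. Without Pfeiffer DMSO replicate 1 they were 1207 and 1796, without replicate 2 1444 and 2093. Depth is unknown, so the values of KLF4 and KLF11 carry no counting limit.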
